A study of Mus musculus with 38 samples.

Results

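Gonocytes, the germ cells of the fetal testis, of Inhba knockout (KO) embryos were compared with those of wild type (WT) embryos at embryonic day 15.5 (E15.5), across all genes of a raw count table. The members are the 8 animals that the sample titles and table columns place at E15.5 in the Inhba line, 4 KO and 4 WT, of 19 animals in the series. Their libraries make up 16 of 38 sequencing records, 2 for each animal. The 7 E13.5 animals of the same line, 3 WT and 4 KO, set levels beside those at E15.5 and share the estimate of spread. They also enter the first principal component, which places the animals between the ages, and the interaction of genotype with age. The question was how gonocytes develop in a testis without activin A.

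Every animal carried an Oct4-eGfp transgene, in which Oct4 regulatory sequence drives green fluorescent protein in germ cells, on the C57/Bl6/129svJ strain given in the labels. WT and KO embryos came from matings of heterozygotes, and the KO lacks Inhba in all cells from conception. The paired testes of 1 embryo were dissociated, GFP-positive cells were sorted, and their RNA was amplified before sequencing. Because every cell of the KO lacks the gene, loss in somatic cells and loss in the gonocytes themselves cannot be told apart. Sample titles of the Inha line name as littermates the animals that share the number before the point. WT 855.2 and KO 855.1 share such a number at E15.5, as do KO 1052.2 and KO 1052.4, but the Inhba titles do not themselves name littermates.

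Activin A is a dimer of Inhba products and belongs to the TGFβ superfamily. It binds type 2 and then type 1 receptors on the cell surface, which phosphorylate SMAD2 and SMAD3. These enter the nucleus with SMAD4 and alter transcription. Over the days in question male gonocytes leave the cell cycle, turn down pluripotency genes and turn on genes of the male fate and of piRNA defence against transposons.

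Total counts ran from 8466087 (KO 855.1) to 40600907 (KO 1052.2), so that 3 counts were worth between 0.0739 and 0.354 cpm (a count scaled to its library total). Intervals on such low values would cover counting error only. Correlations of log2 cpm between pairs of the 8 animals ran from 0.871 to 0.982. The summed level of 10 germ cell markers was 5052 to 5710 cpm in WT animals, compared with 5293 to 5706 cpm in KO animals, and none of the 10 was at 0. Somatic marker sums all lay below those of germ cell markers, and those of interstitial mesenchyme were the highest among them. Sertoli markers summed to 31.3 to 57.6 cpm in WT animals, compared with 12.4 to 39.0 cpm in KO animals, with the KO mean higher for 1 of 17. Macrophage markers summed to 13.1 to 31.2 and 7.87 to 14.4 cpm, with the KO mean higher for 0 of 11. Both the Sertoli and the macrophage sums overlapped between genotypes. Sums of endothelial markers (62.8 to 132 and 57.8 to 100 cpm, KO mean higher for 3 of 10) overlapped too, as did those of Leydig cells (43.4 to 50.5 and 35.9 to 56.9 cpm, 3 of 9) and interstitial mesenchyme (255 to 357 and 293 to 358 cpm, 6 of 12). Erythroid sums also overlapped, at 9.11 to 12.5 and 4.89 to 13.3 cpm (6 of 10), and Hbb-bh1 was at 0. In sorted bulk samples fewer cells of a type and less RNA per cell cannot be told apart.

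Inhba itself (chr13:16011851-16031621, GRCm38) was at 0.466, 0.672, 0.581 and 0.842 cpm in WT 855.2, 941.3, 995.1 and 1064.2, and at 0.591, 0.0937, 0.665 and 0.096 cpm in KO 855.1, 892.2, 1052.2 and 1052.4. The groups overlapped (exact permutation p = 0.229, two-sided). Gonocytes hold almost no Inhba RNA in either genotype, and where the deleted sequence lies is not stated in the sources used here, so these values do not check the labels. The same order of animals is kept wherever 4 values are given. Near the targeted locus, 83 genes lay within 10 Mb of Inhba and were tested. Among them 1 had KO and WT animals that did not overlap (1.2%), Lgals8, whose gene ends 3.55 Mb before Inhba, against 3.85% of all genes tested.

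A single gene passed the threshold, and it was a long noncoding RNA. 9430041J12Rik, annotated as an antisense transcript, was at 4.14, 7.01, 5.29 and 7.29 cpm in the WT animals, compared with 0.827, 0.656, 0.837 and 0.912 cpm in the KO animals. Every KO animal lay below every WT animal, with a gap of several fold between them. The means were 5.93 ± 1.49 and 0.808 ± 0.108 cpm (SD, n = 4 each, exact permutation p = 0.0286, the smallest that 70 arrangements allow). The log2 fold change was -2.81 (SE 0.33), with an adjusted p of 0.00325 in edgeR's quasi-likelihood test over 15209 genes. In the same test on the 8 E15.5 animals alone the adjusted p was 0.0292. A call needed an adjusted p under 0.05 and a change beyond 1.5-fold, and 9430041J12Rik made up the whole of the 0.00658% called. At E13.5 the gene was at 0.581, 0.909 and 0.421 cpm in WT animals, compared with 0.779, 0.456, 0.870 and 0.664 cpm in KO animals, so the KO level at E15.5 lay within the range at E13.5 or at its upper edge.

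The gene occupies chr7:4074125-4120728 on the minus strand and its first 1321 bp overlap the start of Ttyh1 on the plus strand. Its promoter window, shown because the called gene starts inside another gene, covers chr7:4120679-4120978 (minus strand, RefSeq, GRCm38.p6) from 250 bases before to 50 bases after the start. It holds none of the 4 motifs that are described with Tekt1, so that no letter is in capitals.
9430041J12Rik: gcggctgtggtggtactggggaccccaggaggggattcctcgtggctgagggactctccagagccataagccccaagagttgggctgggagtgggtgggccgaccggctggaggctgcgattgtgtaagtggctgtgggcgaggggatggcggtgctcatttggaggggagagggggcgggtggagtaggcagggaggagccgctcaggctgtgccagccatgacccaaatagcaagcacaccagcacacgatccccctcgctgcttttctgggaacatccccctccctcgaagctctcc

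Ttyh1, which encodes a membrane protein of the tweety family, was at 15.4, 29.0, 16.9 and 13 cpm in WT animals, compared with 17.5, 15.1, 17.8 and 14.1 cpm in KO animals. The KO values lay inside the WT range (log2 fold change -0.16, edgeR adjusted p = 0.766), and without WT 941.3 the fold change was 0.16. Whether the counting used strand is not given in the sources used here, so reads over the shared stretch cannot be assigned to one strand. Leng8, the next coding gene, had means of 77.4 and 74.6 cpm. Lair1, on the other side, had means of 6.52 and 3.32 cpm with overlapping animals.

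**Figure D1:**
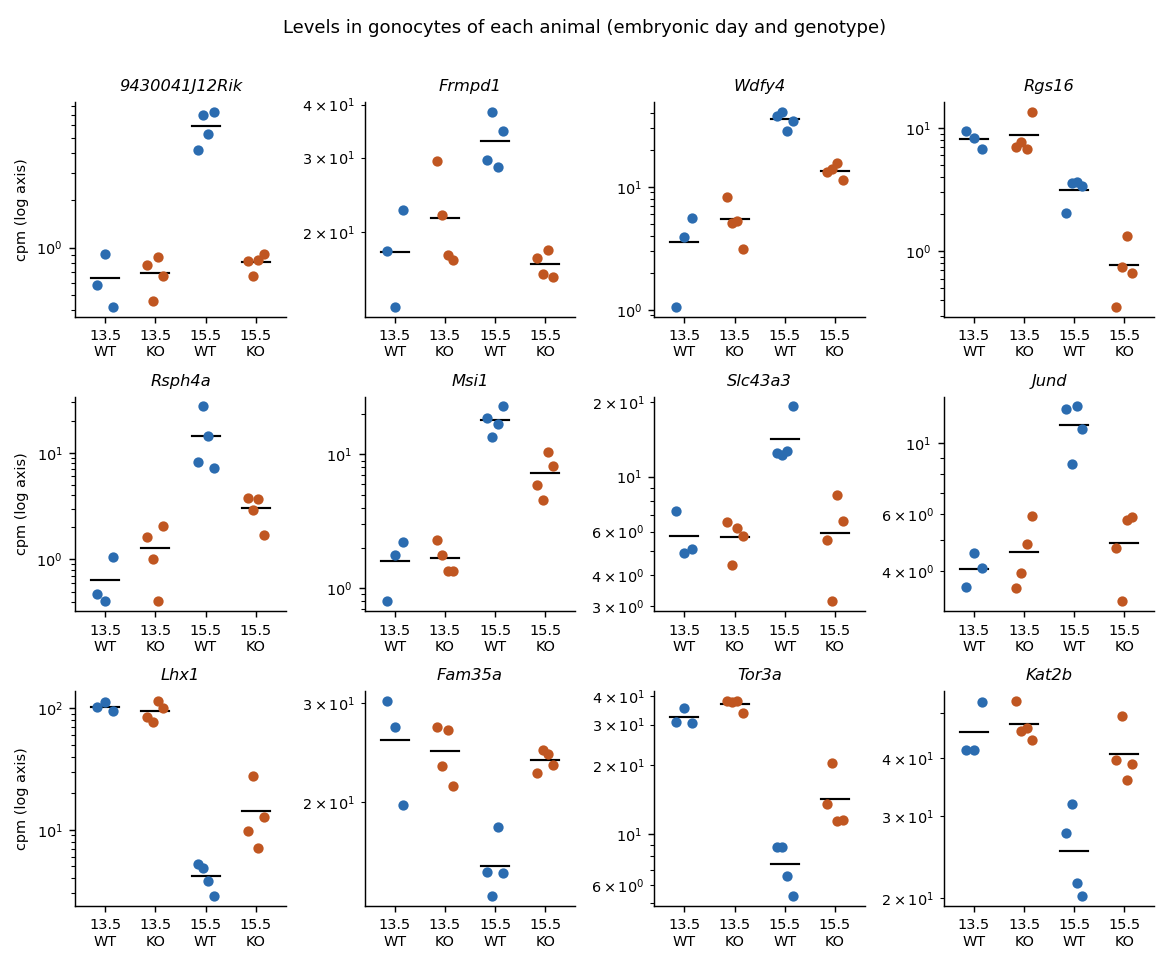
Level of 12 genes in the gonocytes of each animal, in cpm on a log axis, by embryonic day and genotype (blue WT, orange KO), each point 1 animal and each bar the mean of its group. At E15.5 the KO and WT animals do not overlap in any of the 12, and 9430041J12Rik is the only one called by edgeR (0.827, 0.656, 0.837 and 0.912 cpm in KO animals).

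Beyond that gene the evidence was of values and ranks rather than calls. At an unadjusted p under 0.05, 798 genes were lower in KO (5.25%) and 792 were higher (5.21%), 10.5% in all, and the next adjusted p after 9430041J12Rik was 0.289. KO animals all lay below the WT animals in 422 genes (2.77%) and all above them in 164 (1.08%). With cpm scaled by TMM factors, chosen after seeing the data, these counts were 305 and 261, so the excess of lower genes depended on the scaling. DESeq2 on the same counts called 18 genes lower (0.118%) and 7 higher (0.046%) of 15205, and in all 25 the KO and WT animals did not overlap. limma-voom with a weight for each animal, chosen after seeing the data, called 94, of which 20 were among the DESeq2 calls. The genes described next are therefore given with edgeR or DESeq2 where either calls them, and a gene without a call is one called by neither. Calls of the weighted fit are not given gene by gene. For 3 genes that edgeR and DESeq2 leave uncalled, the adjusted p in limma-voom with weights was 0.0203 (Abca17), 0.0232 (Pou2f2) and 0.0699 (Crabp1).

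The study's own list of 44 genes for this comparison was chosen on these same animals, so its counts are a description and not independent evidence. All 44 were tested, 27 lower and 17 higher in KO. Unadjusted p was under 0.05 in 40, against 10.5% of all genes. KO and WT animals did not overlap in 33 (22 lower, 11 higher), against 3.85% of all genes. edgeR called 1 and DESeq2 called 16. The paper called its list with limma-voom, at a false discovery rate under 0.05 and a 1.5-fold change. Here limma-voom, in 1 fit of the 15 Inhba animals, called only 9430041J12Rik (adjusted p = 0.00557). The median log2 fold change of the list was -0.91, against -0.01 over all genes tested.

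Genes of cilia and of the cytoskeleton were among the lower ones. Rsph4a, a component of the radial spoke head of motile cilia, was at 8.24, 27.2, 14.5 and 7.20 cpm in WT animals, compared with 3.78, 2.90, 3.72 and 1.68 cpm in KO animals. The lowest WT animal stood above the highest KO animal, and the log2 fold change was -2.20 (SE 0.48, edgeR adjusted p = 0.289, DESeq2 adjusted p = 0.00657). Tekt1, a tektin inside the doublet microtubules, overlapped: 30.7, 23.1, 32.8 and 47.4 cpm in WT against 24.8, 7.54, 18.5 and 15.4 cpm in KO animals. At E13.5 no animal was above 2.05 cpm for Rsph4a or 2.73 cpm for Tekt1. Frmpd1, a FERM and PDZ domain protein that binds a regulator of G protein signalling, was at 29.6, 38.5, 28.4 and 34.7 cpm in WT animals, compared with 17.4, 16, 18.2 and 15.6 cpm in KO animals (log2 fold change -0.91, SE 0.18, edgeR adjusted p = 0.289, DESeq2 0.00482). Its KO values were among the tightest of the list, and the E13.5 WT mean was 18 cpm.

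Promoter windows were read for the RFX half-site, GTTGCC on either strand, which RFX factors bind at cilium genes. It was found in 2 of 19 windows of the lower genes of the list (10.5%, 15 of 27 genes matched to RefSeq), 1 of 13 of the higher genes (7.69%, 11 of 17 matched) and 12.5% of all 32851 windows of that length. The 2 lower genes with a match were Tekt1 (window chr11:72361833-72362132, minus strand) and 1700029J07Rik (chr8:45975203-45975502, minus strand), shown with the half-sites in capitals. A match is a description of letters and not a bound site.
Tekt1: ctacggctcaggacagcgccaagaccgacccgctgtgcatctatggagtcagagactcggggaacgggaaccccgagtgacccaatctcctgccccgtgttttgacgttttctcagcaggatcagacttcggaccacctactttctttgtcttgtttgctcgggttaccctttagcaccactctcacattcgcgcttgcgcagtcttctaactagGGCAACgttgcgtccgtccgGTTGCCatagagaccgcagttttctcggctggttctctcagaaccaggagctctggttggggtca
1700029J07Rik: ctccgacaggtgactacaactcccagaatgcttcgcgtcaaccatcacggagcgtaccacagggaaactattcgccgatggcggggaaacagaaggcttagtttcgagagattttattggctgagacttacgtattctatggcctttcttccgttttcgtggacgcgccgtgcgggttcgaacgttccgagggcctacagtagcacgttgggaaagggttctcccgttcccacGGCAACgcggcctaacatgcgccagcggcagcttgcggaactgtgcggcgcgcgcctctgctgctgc

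The nuclear receptor half-site AGGTCA was in 5.26% of the lower and 7.69% of the higher genes' windows, against 16.3% of all. The SMAD palindrome GTCTAGAC (0.213% of all windows) and the FOXH1 site AATCCACA (0.855%) were in 0 of either group. Each of these shares was below that of all windows, and the counts behind them are small. 1700029J07Rik itself, a coding gene of the list, was at 17.4, 15.7, 20 and 27.2 cpm in WT animals, compared with 6.85, 8.90, 12.4 and 10.7 cpm in KO animals, without overlap (log2 fold change -0.97, DESeq2 adjusted p = 0.00629).

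Among regulators of RNA and transcription, Msi1, an RNA-binding protein of the Musashi family that controls translation in stem and germ cells, was at 18.8, 13.5, 17.0 and 22.9 cpm in WT animals, compared with 5.91, 4.59, 10.4 and 8.16 cpm in KO animals. No KO animal reached the lowest WT animal (log2 fold change -1.24, SE 0.29, edgeR adjusted p = 0.372, DESeq2 0.0225). The E13.5 means were 1.59 cpm in WT animals, compared with 1.68 cpm in KO gonocytes, so both genotypes stood higher at E15.5. Aes, a short Groucho family corepressor, was at 28.6, 24.0, 24.7 and 22.9 cpm in WT animals, compared with 17.6, 10.4, 13.6 and 12.8 cpm in KO animals (DESeq2 adjusted p = 0.0139). Tsc22d3, the glucocorticoid-induced leucine zipper protein, was at 17.7, 16.9, 26.1 and 27 cpm against 13.8, 8.43, 10.9 and 11.5 cpm, and DESeq2 did not call it (adjusted p = 0.0618). The POU factor gene Pou2f2 (16, 16, 16.3 and 33.6 cpm against 10.3, 3.79, 11 and 6.53 cpm) did not overlap either and was called by neither tool. WT 1064.2 was its highest animal by a wide margin.

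Genes of signalling and transport made up the next group. Rgs16, which speeds GTP hydrolysis by G protein α subunits and so ends receptor signals, was at 2.05, 3.6, 3.65 and 3.37 cpm in WT animals, compared with 0.354, 0.749, 1.33 and 0.672 cpm in KO animals (log2 fold change -1.85, SE 0.34, edgeR adjusted p = 0.289, DESeq2 0.00193). The lowest KO value stood for 3 counts. At E13.5 the mean was 8.14 cpm in WT animals, compared with 8.74 cpm in KO gonocytes, above both groups at E15.5. Slc43a3, a purine nucleobase transporter, was at 12.4, 12.3, 12.7 and 19.2 cpm in WT animals, compared with 5.55, 3.14, 8.42 and 6.62 cpm in KO animals (log2 fold change -1.19, DESeq2 adjusted p = 0.0108). Abca17, an ATP-binding cassette lipid transporter, was at 12.2, 8.95, 26.5 and 15.7 cpm against 6.97, 1.31, 6.11 and 3.93 cpm, and was called by neither tool. Crabp1, which binds retinoic acid in the cytoplasm, was at 13.2, 12.5, 13.5 and 18.8 cpm against 10.2, 3.47, 8.40 and 9.07 cpm, again without overlap and without a call. Lgals8, a galectin, was at 39.0, 25.7, 28.7 and 43.4 cpm against 21.3, 16.8, 19.4 and 18.1 cpm (DESeq2 adjusted p = 0.0265).

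Immune-related genes stood on both sides. Wdfy4, a BEACH domain protein best known from antigen handling in dendritic cells, was at 37.9, 40.8, 28.8 and 34.3 cpm in WT animals, compared with 13.1, 14.0, 15.7 and 11.4 cpm in KO animals. The lowest WT animal was well above the highest KO animal (log2 fold change -1.33, SE 0.33, edgeR adjusted p = 0.430, DESeq2 0.0336). Tnfsf10, the death ligand TRAIL, was at 0.931, 2.98, 4.60 and 2.20 cpm in WT animals, compared with 0.945, 0, 0.517 and 0.480 cpm in KO animals, which overlapped. Cd86, a costimulatory membrane protein, was at 20.3, 8.73, 15.3 and 15.8 cpm in WT animals, compared with 21.3, 26.7, 26.4 and 26.6 cpm in KO animals (unadjusted p = 0.065 in edgeR). At E13.5 it was between 0.0554 and 1.28 cpm. Macrophage markers summed to 13.1 to 31.2 cpm in WT animals, compared with 7.87 to 14.4 cpm in KO animals, with overlap. Their part in these values was not tested.

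Of the 17 genes higher in KO, Lhx1 had the smallest p, while the fold changes of Rps3a2 and Rps3a1, given with the transcripts at separate levels, were larger. This LIM homeobox factor, which supports self-renewal of spermatogonial stem cells, was at 5.21, 4.89, 3.75 and 2.85 cpm in WT animals, compared with 9.69, 28, 7.02 and 12.8 cpm in KO animals. The groups did not overlap, and KO 892.2 alone was far above the rest. The log2 fold change was 1.85 (SE 0.35, edgeR adjusted p = 0.289, DESeq2 0.00014), and without KO 1052.2 edgeR called it (2.11, adjusted p = 0.046). Without KO 892.2 the fold change was 1.25 (edgeR adjusted p = 0.522). At E13.5 Lhx1 was between 77.5 and 115 cpm, so both genotypes stood far lower at E15.5. Its promoter window (chr11:84525485-84525784, minus strand), shown for the gene with the largest difference of the higher group that DESeq2 calls, held none of the 4 motifs.
Lhx1: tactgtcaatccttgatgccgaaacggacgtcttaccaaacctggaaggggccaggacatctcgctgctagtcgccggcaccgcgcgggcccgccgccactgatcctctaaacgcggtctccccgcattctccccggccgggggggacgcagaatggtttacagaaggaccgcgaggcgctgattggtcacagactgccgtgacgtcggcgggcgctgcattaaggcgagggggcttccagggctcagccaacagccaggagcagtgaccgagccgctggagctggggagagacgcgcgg

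Kat2b, a lysine acetyltransferase, was at 27.6, 31.9, 21.6 and 20.2 cpm in WT animals, compared with 39.6, 49.2, 35.9 and 39.0 cpm in KO animals (log2 fold change 0.75, DESeq2 adjusted p = 0.0108). Tor3a, an endoplasmic reticulum ATPase of the torsin family, was at 8.80, 8.76, 6.55 and 5.38 cpm against 13.6, 20.4, 11.4 and 11.5 cpm (log2 fold change 1.01, DESeq2 adjusted p = 0.00629), and its E13.5 WT mean was 32.2 cpm. The cortex scaffold genes Slc9a3r1 (35.8, 34.1, 31.5 and 18.3 cpm against 47.8, 53.8, 39.7 and 50 cpm) and Msn (87.2, 115, 95.9 and 50.8 cpm against 126, 176, 113 and 141 cpm), which encode an adaptor and the moesin protein it binds, had the same log2 fold change of 0.74. Msn overlapped, Slc9a3r1 did not, and neither was called.

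Fam35a and Glud1 lie head to head on chromosome 14, their annotated starts 234 bases apart, and they were the only pair of DESeq2 calls with starts that close to each other. Fam35a, named Shld2 in RefSeq, is a subunit of the shieldin complex that protects broken DNA ends, and was at 15, 13.6, 18.1 and 14.9 cpm in WT animals, compared with 22.6, 24.7, 24.4 and 23.3 cpm in KO animals (log2 fold change 0.69, DESeq2 adjusted p = 0.00629). Glud1, the mitochondrial glutamate dehydrogenase, is not in the study's list and was chosen after its values were seen. It was at 106, 117, 99.4 and 85.6 cpm in WT animals, compared with 128, 223, 133 and 160 cpm in KO animals, again without overlap (log2 fold change 0.72, DESeq2 adjusted p = 0.0372). At E13.5 Glud1 was higher than in either group, with a WT mean of 460 cpm, and Fam35a was at a mean of 25.8 cpm. The window chr14:34310468-34310767 (minus strand of Fam35a, GRCm38.p6) holds both starts, with the first 41 letters of Glud1 and the first 26 of Fam35a in capitals, Glud1 at the left and read from the other strand.
Fam35a: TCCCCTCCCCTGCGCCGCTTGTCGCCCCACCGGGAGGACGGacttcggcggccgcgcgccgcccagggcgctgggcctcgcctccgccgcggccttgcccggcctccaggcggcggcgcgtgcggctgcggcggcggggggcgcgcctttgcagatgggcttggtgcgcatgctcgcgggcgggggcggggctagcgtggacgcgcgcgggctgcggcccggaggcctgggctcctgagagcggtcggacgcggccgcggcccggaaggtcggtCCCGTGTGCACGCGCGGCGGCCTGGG

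DESeq2 called 9 genes outside the study's list, of which a few are given here, chosen after their values were seen. Jund, an AP-1 subunit of the JUN family, was at 12.8, 8.60, 13 and 11 cpm in WT animals, compared with 4.72, 3.23, 5.76 and 5.90 cpm in KO animals (log2 fold change -1.15, SE 0.23, edgeR adjusted p = 0.289, DESeq2 0.00629). The KO animals lay near the E13.5 WT mean of 4.08 cpm. Spag6l, a protein of the central pair of motile axonemes, was at 5.26, 6.85, 8.51 and 9.40 cpm against 2.13, 1.69, 2.59 and 3.6 cpm (log2 fold change -1.52, DESeq2 adjusted p = 0.0336). Pik3c2g, a class II phosphoinositide 3-kinase, was at 4.19, 3.73, 9.04 and 8.32 cpm against 1.89, 0.984, 2.09 and 1.78 cpm (log2 fold change -1.84, DESeq2 adjusted p = 0.0196).

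The remaining genes of the study's list were mostly uncalled by either tool. C330011M18Rik, annotated like 9430041J12Rik as an antisense transcript, was at 11.2, 15.9, 13.7 and 14.4 cpm in WT animals, compared with 4.49, 5.43, 8.37 and 6.48 cpm in KO animals (log2 fold change -1.09, DESeq2 adjusted p = 0.00632). Dnase1l3, a secreted DNase, was tight in WT animals at 3.12, 2.98, 2.64 and 2.85 cpm and stood at 1.77, 0.187, 0.665 and 0.432 cpm in KO animals, without overlap but with a DESeq2 adjusted p of 0.195. Dkk3, a Dickkopf family protein, was at 3.44, 5.10, 4.28 and 4.30 cpm against 3.31, 0.562, 2.41 and 1.2 cpm, where KO 855.1 came close to the lowest WT animal. On the higher side, D15Ertd621e was at 232, 219, 235 and 165 cpm against 345, 335, 265 and 289 cpm (log2 fold change 0.60, DESeq2 adjusted p = 0.0194). Rnf213, a giant ubiquitin ligase of the interferon response, was at 208, 262, 208 and 111 cpm against 344, 401, 289 and 305 cpm without overlap, and DESeq2 did not call it (adjusted p = 0.136). Hibadh, a dehydrogenase of valine breakdown (77.2, 96.8, 77.1 and 55.2 cpm against 93.8, 123, 111 and 109 cpm), and Itpr1, the IP3-gated calcium channel (111, 124, 132 and 95.4 cpm against 126, 188, 170 and 162 cpm), overlapped by 1 animal of each genotype.

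**Figure D2:**
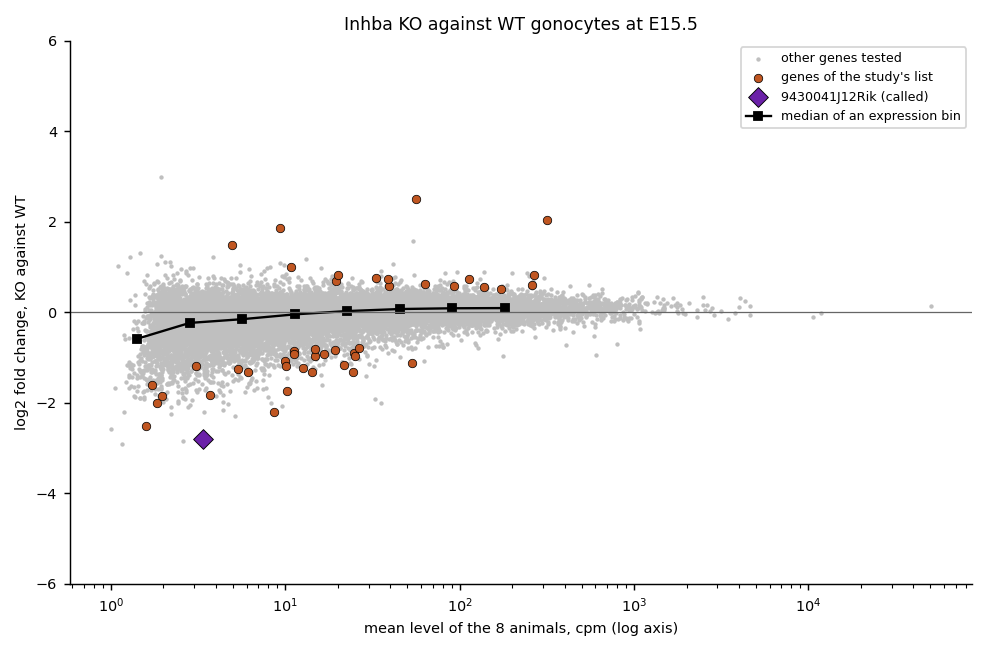
Log2 fold change of KO against WT at E15.5 for each gene tested against its mean level over the 8 animals, in cpm on a log axis. The bin medians run from -0.59 at the lowest levels to 0.09 above 128 cpm, and the purple diamond marks 9430041J12Rik at -2.81.

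The direction of small differences moved with expression level across the whole table. Among 499 genes with a mean of up to 2 cpm the median log2 fold change was -0.59, with 80% below 0. It was -0.24 in 2392 genes between 2 and 4 cpm, -0.05 in 2353 genes between 8 and 16 cpm, and 0.09 in 1681 genes above 128 cpm, where 29.4% were below 0. Past 1.5-fold in either direction, 1713 genes were lower and 177 higher, with no regard to p. WT libraries also held more genes above the study's detection limit, at 14208, 13570, 14589 and 15246 against 13508, 12933, 14065 and 13498 in KO animals (means 14403 and 13501, exact permutation p = 0.0571).

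Pathway lists are given by counts, and apart from 9430041J12Rik in the study's list no member of any list was called by edgeR. Over all genes tested, 5.25% were lower and 5.21% higher at an unadjusted p under 0.05. KO and WT animals did not overlap in 3.85% of all genes. The counts of each list stand beside these shares. In the activin and Nodal pathway, 17 of 24 genes were tested, with a median log2 fold change of 0.19, against -0.05 for all genes at the list's median level. Of these, 3 were higher (17.6%) and 1 lower (5.88%) at an unadjusted p under 0.05. KO and WT animals overlapped in all 17. Smad4, the shared partner of the receptor-activated SMADs, was at 76.7, 83.7, 77.7 and 68.6 cpm in WT animals, compared with 91.4, 96.4, 81.7 and 85.0 cpm in KO animals (log2 fold change 0.27, edgeR adjusted p = 0.470). Lefty2, a secreted Nodal antagonist and itself a target of the pathway, was at 6.19, 4.19, 4.39 and 2.53 cpm against 6.97, 13.5, 3.84 and 7.97 cpm, after a mean of 193 cpm in WT at E13.5. Lefty1, of the same family, was at 1.77, 1.40, 0.740 and 0.935 cpm against 1.54, 4.73, 0.640 and 2.88 cpm, near the detection limit. For the 15 SMAD2/3 targets tested the median was 0.31, against -0.16 at their level, with 2 higher (13.3%) and 0 lower at p under 0.05. Without KO 892.2 their median was 0.01. For 12 BMP pathway genes the median was 0.10, against -0.05 at their level, with 1 higher (8.33%) and 0 lower at p under 0.05. KO animals all lay above the WT animals in 1 of the 12 and all below in 1, against 1.08% and 2.77% of all genes. The 1 above was Bmpr1a, a type 1 BMP receptor, at 79.2, 82.3, 76.0 and 77.0 cpm against 83.5, 98.3, 96.9 and 100 cpm.

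Germ cell programmes follow in the order of their roles. Among 23 genes of male differentiation and the piRNA pathway the median was -0.04, against 0.09 for all genes at their level. At p under 0.05, 0 were higher and 0 lower. In 2 of the 23 the KO animals all lay below the WT animals and in 0 all above, against 2.77% and 1.08% of all genes. Nanos2, an RNA-binding protein that fixes the male fate, was at 26.9, 42.9, 25.3 and 9.87 cpm in WT animals, compared with 32.0, 58.8, 28.3 and 46.4 cpm in KO animals, with broad overlap. Of 20 early germ cell and pluripotency genes, 3 were higher (15%) and 1 lower (5%) at p under 0.05 (median 0.21). Dppa3, a guard of maternal methylation, was at 386, 712, 539 and 154.7 cpm against 511, 1044, 428 and 626 cpm. Kit, the stem cell factor receptor, was at 46.8, 24.0, 33.8 and 37.0 cpm against 28.9, 20, 24.0 and 19.8 cpm. Among 21 RNA-binding proteins of germ cells, 8 were higher (38.1%, against 5.21% of all genes) and 1, Msi1, lower at p under 0.05. Their median was 0.21, against 0.09 for all genes at their level, and Elavl2 (76.3, 89.2, 91.6 and 79.7 cpm against 107, 144, 84.5 and 101 cpm) was one of the 8. For 18 spermatogonial stem cell factors 4 were higher (22.2%) and 1 lower (5.56%) at p under 0.05 (median 0.10). Among them was Etv5, an ETS factor downstream of GDNF and FGF signals, at 28.4, 39.1, 26 and 17.3 cpm against 57.4, 92.1, 30.4 and 40.8 cpm with overlap.

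Meiosis genes had 5 lower (22.7%, against 5.25% of all genes) and 0 higher at p under 0.05 among 22 tested, with a median of -0.13 against 0.07 at their level. Rec8, the meiotic cohesin subunit, was at 11.9, 11.9, 11.9 and 18.5 cpm in WT animals, compared with 11.7, 6.42, 6.01 and 6.77 cpm in KO animals, so that the highest KO animal lay just under the lowest WT animal. Stra8, the retinoic acid target that opens meiosis, was at 2.61, 7.12, 5.23 and 2.81 cpm against 3.90, 1.55, 1.06 and 1.68 cpm. Retinoic acid pathway genes had a median of -0.36 over 13 tested, 3 lower (23.1%) and 1 higher (7.69%), the latter Crabp2 (9.03, 15.3, 5.07 and 6.03 cpm against 18, 15.5, 12.8 and 13.3 cpm). Proliferation genes had a median of 0.18 over 26, with 0 higher and 1 lower (3.85%), and cell cycle inhibitors 0.20 over 12, with 0 higher and 1 lower (8.33%). That 1 was Rbl2, the p130 pocket protein that holds cells in quiescence, at 18.6, 16.5, 19.5 and 21.6 cpm against 13.6, 13, 15.1 and 14.1 cpm without overlap.

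The motile cilium list had 26 genes tested, of which 24 were below 0, 9 lower (34.6%, against 5.25% of all genes) and 0 higher at p under 0.05. In 3 the KO animals all lay below the WT animals, as in 2.77% of all genes. The list was drawn up with earlier results of these data known. It holds Rsph4a, of the study's list chosen on these same animals, so its counts are a description. The list's median of -0.52 stands beside 0.02 for all genes at 16 to 32 cpm, the range that holds its median level of 21.4 cpm. Tekt2, another tektin, was at 3.72, 3.41, 5.13 and 5.10 cpm in WT animals, compared with 2.13, 1.59, 2.49 and 2.26 cpm in KO animals (log2 fold change -0.97, edgeR adjusted p = 0.470). Dnah6, an inner arm dynein, was at 15.2, 5.27, 17.9 and 36.4 cpm against 7.09, 4.12, 14.0 and 7.10 cpm and overlapped. Rfx1, a factor of the RFX family, did not overlap at 42.8, 45.7, 41.8 and 34.6 cpm against 32.5, 28.4, 33.4 and 34.4 cpm. With other size factors, limma-voom, the 8 animals alone and each animal left out, the list's median ran from -0.68 to -0.43.

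Of the somatic marker lists, those of Sertoli cells, macrophages and endothelium were also low. The 8 Sertoli markers tested had a median of -0.46 (3 lower at p under 0.05, 37.5%), the 3 macrophage markers -0.75 and the 7 endothelial markers -0.41, against -0.24, -0.24 and 0.02 for all genes at their levels. The other somatic lists were near or above their level. Medians were 0.05 for 5 Leydig markers and -0.27 for 3 erythroid markers, each against -0.24. For 9 markers of interstitial mesenchyme the median was -0.03, against -0.16. The part of somatic cells in the other lower lists was not tested.

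Other lists with medians well below 0 were the 14 ABCA transporters (-0.46, 4 lower at p under 0.05, 28.6%), the 12 G protein signalling regulators (-0.51, 1 lower, 8.33%) and the 16 immediate early and stress genes (-0.40, 3 lower, 18.8%, and 2 higher, 12.5%). All genes at the levels of these 3 lists had medians of -0.05, -0.16 and -0.05. Medians were -0.84 for the 4 zona pellucida genes tested, -0.62 for the 5 Clec2 lectins and galectins and -0.39 for the 8 Nlrp genes. All genes at the levels of these lists had medians of -0.16, -0.05 and -0.05. At p under 0.05, 1 zona pellucida gene was higher in KO (25%) and 0 were lower. Of the lectins and galectins 2 were lower (40%) and 0 higher, and of the Nlrp genes 0 were lower and 0 higher. In the immediate early list, Fosb (1.58, 10.5, 2.96 and 1.78 cpm against 1.06, 1.22, 1.16 and 0.912 cpm) and Hspa1a (3.21, 5.10, 8.67 and 2.76 cpm against 1.18, 2.20, 0.985 and 1.34 cpm) did not overlap, and without WT 941.3 the median turned to 0.11. Ribosomal protein genes had a median of 0.15 over 86, with 6 higher (6.98%) and 1 lower (1.16%), and chaperones 0.16 over 15, with 4 higher (26.7%). Interferon response genes had a median of 0.01 over 25, and imprinted genes -0.05 over 22. In the latter Peg3, a paternally expressed zinc finger gene, was at 244, 284, 242 and 156 cpm against 299, 523, 329 and 350 cpm, and H19, a maternally expressed noncoding RNA, was at 30.9, 30.6, 27.4 and 14.3 cpm against 48.8, 42.0, 34.3 and 43.2 cpm. Neither overlapped, and neither was called.

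**Figure D3:**
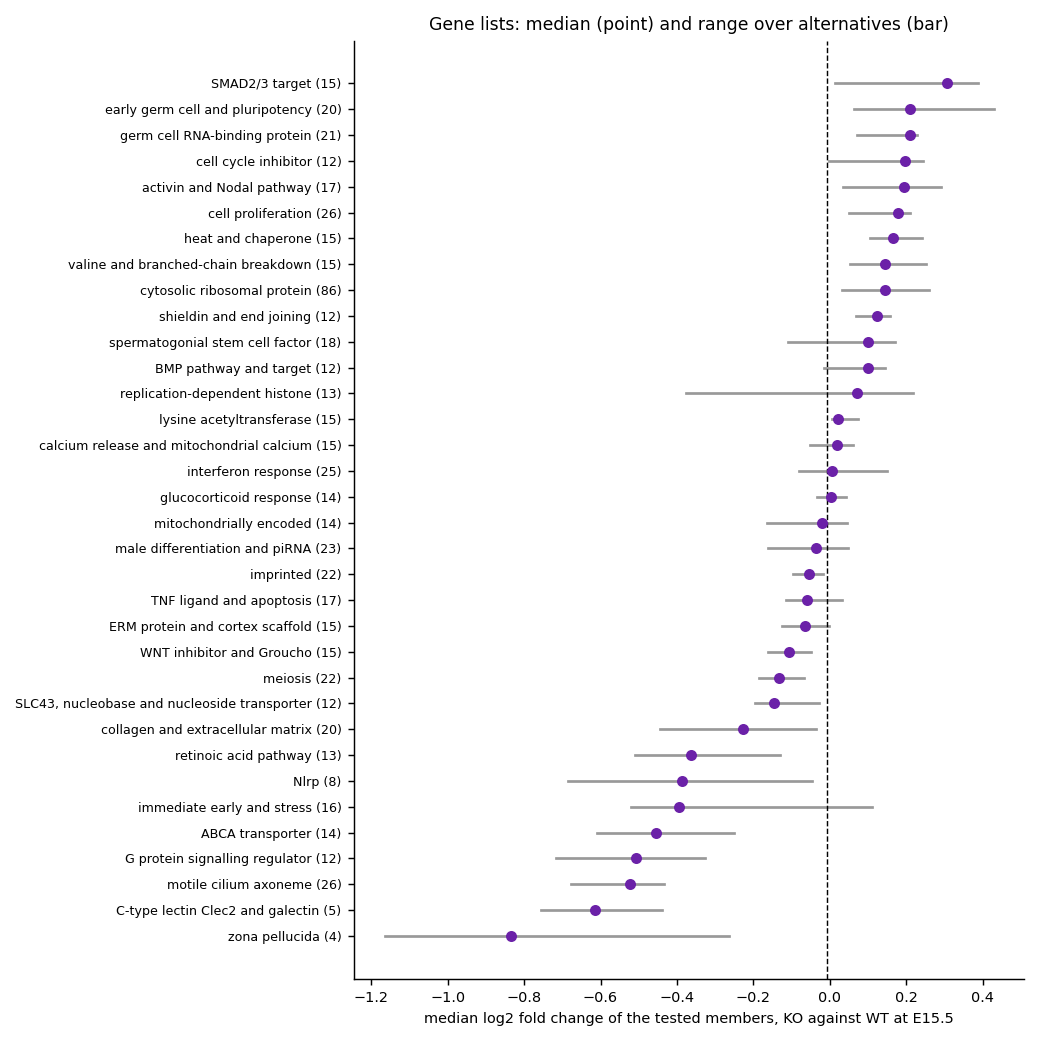
Median log2 fold change of the tested members of the gene lists shown (points, number tested in parentheses) and the range of that median with other size factors, limma-voom, the 8 animals alone and each animal left out (bars), the dashed line marking all genes tested. Motile cilium genes lie at -0.52 with a bar that stays below 0, while immediate early and stress genes cross 0.

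The animals themselves were spread along the same axis that separates the ages. The first principal component of the 15 Inhba animals held 83.2% of the variance and was scaled so that the E13.5 mean is 0 and the E15.5 mean is 100. The WT animals lay at 110, 86.3, 109 and 123 and the KO animals at 99.6, 71.6, 105 and 95.9. KO 892.2 was nearest to E13.5 and WT 1064.2 farthest from it, and the groups overlapped (means 107 ± 15.2 and 93.0 ± 14.8, SD, n = 4 each, exact permutation p = 0.257). With this position as a covariate in a fit of the 8 animals, added after seeing the data, edgeR called 4 genes, all lower in KO: 9430041J12Rik (-2.81, adjusted p = 0.00228), Wdfy4 (-1.38, adjusted p = 0.00325), 3425401B19Rik (-1.69, adjusted p = 0.0121) and Frmpd1 (-0.94, adjusted p = 0.0448). Lhx1 was at 1.12 in that fit (adjusted p = 0.373).

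**Figure D4:**
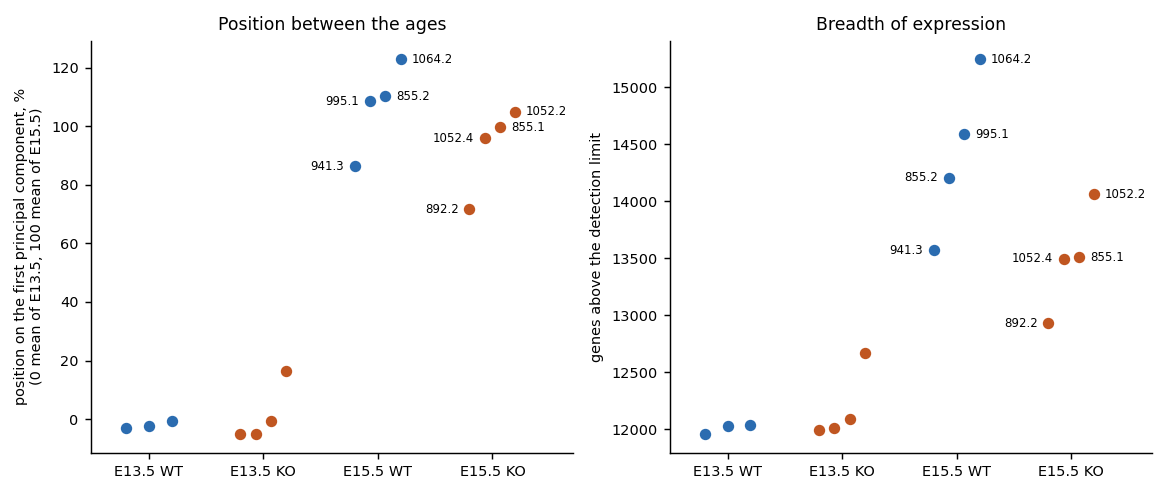
Position of each animal on the first principal component in percent of the distance between the mean of E13.5 and the mean of E15.5 (left), and number of genes above the detection limit (right), by age and genotype. KO 892.2 and WT 941.3 lie lowest in their groups on both measures, at 71.6 and 86.3 on the left.

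Single animals carried much of the spread. Without WT 941.3, 1994 genes had all KO animals below and 761 all above the WT animals, where fewer animals make such an order more frequent, and 3500 genes had an unadjusted p under 0.05. Without WT 1064.2 that last count was 608, and without KO 892.2 it was 694. The call of 9430041J12Rik held without any one of the 8 animals and without KO 892.2 and WT 941.3 together. With WT 1064.2 left out too, its log2 fold change was -2.41 with an edgeR adjusted p of 0.163. With the number before the point as a fixed block, added after seeing the data, KO and WT are compared through animals 855.1 and 855.2 alone, and the fold change was -2.25 (edgeR adjusted p = 0.293). In limma-voom with that number as a block of estimated correlation it was -2.61 (adjusted p = 0.0202).

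Whether the genotypes differed by another amount at E15.5 than at E13.5 was tested as an interaction over 15841 genes. edgeR called 0 (0%), with 966 at an unadjusted p under 0.05. limma-voom called 0 as well, with 567 at an unadjusted p under 0.05, and DESeq2 called 11, 10 with the KO-WT difference more negative at E15.5 and 1, Lhx1, with it more positive. For 9430041J12Rik the interaction was -2.90 (edgeR adjusted p = 0.324), and DESeq2 gave -2.92 (adjusted p = 0.00316). Rsph4a (-3.15), Spag6l (-2.59), Frmpd1 (-1.16) and Lhx1 (1.98) were at a DESeq2 adjusted p of 0.04996, at the edge of the threshold, as was Itga4, the α4 integrin subunit (-2.70).

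A few transcripts stood at separate levels among animals, and at E15.5 none of them separated the genotypes completely. A search made after seeing the data took genes with a gap of at least 16-fold between sets of at least 2 animals and found 7, with 7 distinct sets of low animals. mt-Nd3, a mitochondrially encoded subunit of complex I, was at 36.3, 34.4, 34.0 and 51.9 cpm in WT animals, compared with 39.7, 38.0, 0.0985 and 0.192 cpm in KO animals. The low animals were KO 1052.2 and 1052.4, which share the number before the point, and at E13.5 KO 831.2 and 832.1 were low as well, so that every low animal was a KO. Trim12a, of an antiviral TRIM family with near-identical neighbours, was at 0.107 to 0.172 cpm in WT 941.3 and in KO 855.1, 1052.2 and 1052.4, and at 5.0 to 16.3 cpm in the rest. At E13.5 it was low in all 3 WT animals and in 0 of the 4 KO animals. Rpl29 was at 0.978 to 1.54 cpm in 5 animals and 29.6 to 46.9 cpm in the other 3.

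Genes of the study's list shared this behaviour. Rps3a1, a ribosomal protein gene, was at 390, 45.1, 40.1 and 37.1 cpm in WT animals, compared with 480, 443, 352 and 761 cpm in KO animals. Rps3a2, its processed pseudogene, followed at 67.5, 0.645, 0.529 and 0.701 cpm against 90.0, 78.6, 63.9 and 147 cpm. Reads of the pair can be split between them, so neither value is certain for its own locus. WT 855.2 lay among the KO animals in both, and without it edgeR called both (log2 fold changes 3.7 and 7.27). Gm7534 was at 71.4, 88.5, 69.4 and 64.3 cpm in WT animals, compared with 67.8, 0.187, 62.9 and 1.63 cpm in KO animals, and Clec2g, a C-type lectin, at 0.186, 0.0537, 10.8 and 0 cpm against 0.354, 6.65, 12.4 and 9.12 cpm. Both overlapped, with an unadjusted p of 0.26 and 0.25 in edgeR.

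**Figure D5:**
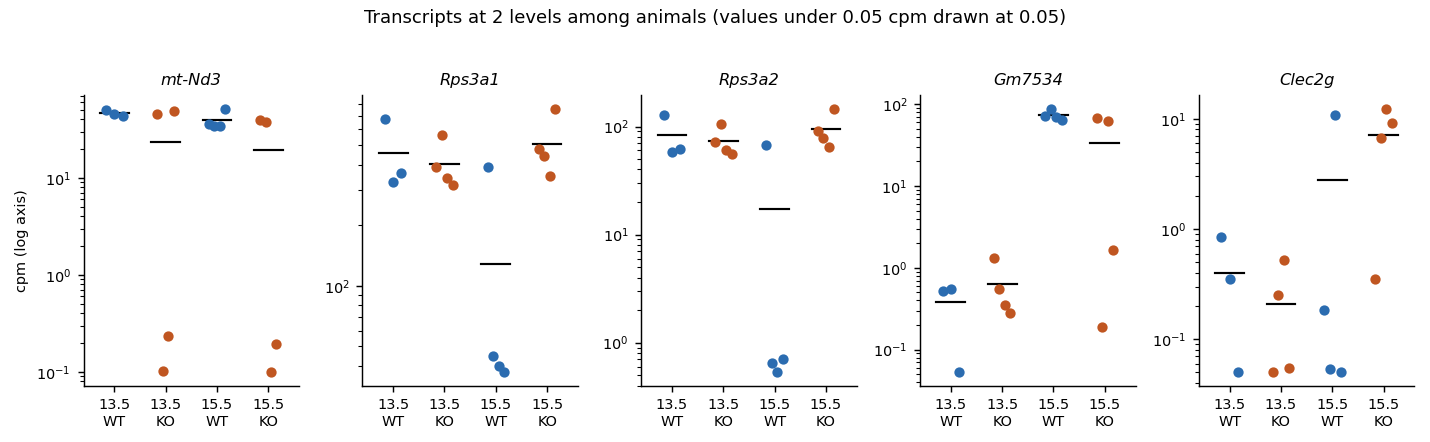
Levels of 5 transcripts that stand at separate levels among animals, in cpm on a log axis, by age and genotype (blue WT, orange KO, bars the group means). Rps3a2 is at 67.5 cpm in 1 WT animal and at 0.529 to 0.701 cpm in the other 3, and mt-Nd3 is low in 2 KO animals at each age.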

How the data were processed

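RNA of sorted gonocytes was sequenced as 80 bp single-end reads. The authors aligned reads with STAR 2.5.2b to GRCm38 and counted them per gene with featureCounts of Subread 1.5.2, per the submitters' processing notes (also FastQC 0.11.5, Picard 2.26.3 and MultiQC 1.0), and deposited raw counts per gene, 1 column for each animal. How the 2 records of an animal were combined, the strand setting and the amplification kit of each sample are not given in the sources used here. Genotype was read from titles and column names, since the genotype field gives KO for the 4 WT animals too. Symbols of 27 genes had been turned into dates and were restored by gene ID.

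Counts of the 15 Inhba animals were fitted in edgeR 4.0.16 (R 4.3.3) with TMM scaling and the robust quasi-likelihood test, 1 mean per group, on genes above 2.391 cpm in at least 2 of the 8 E15.5 animals. A call needed a log2 fold change beyond 0.585 with a p, adjusted after Benjamini and Hochberg, below 0.05. Fold changes are KO against WT, and cpm are counts over each animal's total. Single values were compared by two-sided exact permutation tests. Alternatives were DESeq2 1.42.0, limma-voom (limma 3.58.1), other scaling, no filter, the 8 animals alone and leaving out animals. KO 1052.2 and 1052.4 share the number that marks littermates in the Inha titles, as do WT 855.2 and KO 855.1, and the main fit treats the animals as independent. Its p-values rest on a spread estimated over all 15 Inhba animals, 7 of them at E13.5. In edgeR 1590 genes had an unadjusted p under 0.05 in the main fit, against 1111 with the 8 E15.5 animals alone. The number before the point was a block in 2 alternatives added after seeing the data.

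Genes named were those of the study's list, those called, up to 4 of each list by smallest p, those called in the interaction, and markers. The others were chosen after their values were seen. The comparison and the lists were chosen with earlier results of these data known. Positions are from GENCODE on GRCm38, and sequences are from RefSeq on GRCm38.p6. A gene of the study's list is not reported here.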

Additional observations from a re-analysis of the deposited data

Results flagged for a closer look

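In 13 of 126 groups of 4 animals examined, 1 animal stood apart from the other 3. The rule's nominal rate of about 1 group in 20 cannot be set against this count. Some of the genes were chosen after their values were seen, and the same animals recur for every gene. At E15.5 WT 1064.2 was apart and highest for Slc43a3 (19.2 cpm, others 12.3 to 12.7), Pou2f2 (33.6 cpm, others 15.97 to 16.3), Crabp1 (18.8 cpm, others 12.5 to 13.5) and mt-Nd3 (51.9 cpm, others 34.0 to 36.3). The 3 nuclear genes among these are all lower in KO. WT 855.2 was apart for Rps3a1 (390 cpm, others 37.1 to 45.1) and Rps3a2 (67.5 cpm, others 0.529 to 0.701), WT 995.1 for Clec2g (10.8 cpm, others 0 to 0.186) and KO 855.1 for Cd86 (21.3 cpm, others 26.4 to 26.7).

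At E13.5 KO 928.1 was apart for Rgs16 (13.5 cpm, others 6.73 to 7.70), Tnfsf10 (0.111 cpm, others 0.0507 to 0.0580, which is 2 counts against 1 in each of the others and under the floor of 3 counts), Tor3a (33.6 cpm, others 37.7 to 38.0) and Dppa3 (1577 cpm, others 1262 to 1285). KO 696.6 was apart for Cd86 (1.28 cpm, others 0.0554 to 0.101).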

How the results depend on the processing

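The count of called genes was 1 in the planned analysis, 25 with DESeq2, 1 with limma-voom and 1 to 3 with each replicate left out. Under alternatives chosen after seeing the data it was 94 with quality weights, 4 with the position between the ages as a covariate, 2 without KO 892.2 and WT 941.3, and 24 with DESeq2 on the 8 animals. Without KO 892.2, WT 941.3 and WT 1064.2 it was 1, Trim12a and not 9430041J12Rik (-2.41). The extra calls without WT 855.2 were Rps3a1 and Rps3a2, and without KO 1052.2 Lhx1. The interaction count was 0, with DESeq2 11 and with each replicate left out 0 to 2. Genes with all KO animals below the WT animals numbered 422, 305 with TMM-scaled cpm, and 494 to 1994 with each animal left out. Those with all above numbered 164, 261 with TMM-scaled cpm and 225 to 761 with each animal left out. Of 57 genes followed, Ttyh1 reversed without the block, running from -0.30 to 0.16 with each animal left out (0.16 without WT 941.3), 0.17 without KO 892.2 and WT 941.3, and 0.066 without WT 1064.2 as well. The medians of 14 of 44 lists changed sign with other size factors, limma-voom, the 8 animals alone or an animal left out. The cause of these changes was not tested. With the number before the point as a fixed block in edgeR, which leaves animals 855.1 and 855.2 to compare the genotypes, 54 genes were called, 27 lower and 27 higher, without 9430041J12Rik (-2.25) but with Wdfy4 (-1.46) and Rnf213 (0.79), and the fold changes of Dkk3 (0.0090), Mob3c (0.22), Tnfsf10 (0.089), Ttyh1 (0.25) and mt-Nd3 (0.20) reversed. In limma-voom with that number as a block (correlation 0.539) 1 gene was called, 9430041J12Rik, and 0 in the interaction. Deviations from the group means correlated at 0.192 between WT 855.2 and KO 855.1 and at 0.0152 between KO 1052.2 and 1052.4. These 2 values cannot be compared. Animals of 1 group share the mean that is subtracted, which pulls the correlation of such a pair below 0. With 3 counts worth up to 0.354 cpm, values near 1 cpm rest on few counts in the smallest library. Which differences 4 animals a group can resolve at that level was not tested.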
